A study of Mus musculus with 12 samples.

Results

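Oxidative phosphorylation was followed through 107 protein-coding genes of the count table, chosen by symbol: the Nduf genes of complex I, Sdha to Sdhd of complex II, the Uqcr genes of complex III, the Cox4 to Cox8 genes of complex IV, the Atp5 genes of complex V (ATP synthase) and every protein gene whose symbol begins with mt-. Of these, 94 are encoded in the nucleus and 13 in the mitochondrial genome, out of 55401 gene identifiers in the table. A filter on low counts passed 100 of the 107 (87 nuclear, 13 mitochondrial) and 16135 genes in all.

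RNA was sequenced from primary cultures of the subventricular zone, the germinal layer beside the lateral ventricles, of CD1 mice, with 4 libraries for each of 3 groups. Postnatal neural stem cells (postnatal NSC, from pups of postnatal day 0 to 2) and adult neural stem cells (adult NSC, from mice of 2 months) grew as free-floating neurospheres for 6 to 7 days without serum, with 2% B27, FGF at 10 ng/mL, EGF at 20 ng/mL and heparin at 2 µg/mL. Postnatal oligodendrocyte precursor cells (postnatal OPC, also postnatal day 0 to 2) were made from dissociated primary neurospheres plated as a monolayer for 2 days with B27, FGF at 10 ng/mL and PDGF-AA at 10 ng/mL, so that cell type, medium, growth form and days in culture differ together between OPC and NSC and cannot be told apart. Between OPC and adult NSC the age of the mice differs too, and it cannot be told apart from these either. No group carried a transgene or a further treatment, and the replicates are described as separate litters. In such bulk cultures fewer cells of a type and less RNA per cell cannot be told apart.

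Oxidative phosphorylation makes most of the ATP of a resting cell. Complexes I and II pass electrons from NADH and succinate to ubiquinone, complex III passes them on to cytochrome c, and complex IV hands them to oxygen, while complexes I, III and IV pump protons whose return through ATP synthase drives ATP formation. Complexes I, III, IV and V mix subunits from both genomes, and complex II is wholly nuclear. Neural stem cells are known to draw on glycolysis as well, and neural cells are known to rely more on respiration as they differentiate.

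The libraries held 38928989 to 54801726 gene counts in postnatal NSC, 16756231 to 20064043 for adult NSC and 17226501 to 23651396 for postnatal OPC. The labels state 37 M reads for each postnatal NSC library and 20 M for the others, so that the counts of every postnatal NSC library exceeded its stated reads. The reason is not given in the sources used here, and its part in the shares below was not tested. Stated reads differ together with age between the NSC groups, and together with cell type between postnatal NSC and OPC. They cannot be told apart from these by the design. With counts thinned to the smallest total, 34 nuclear members were called higher and 6 lower in adult than in postnatal NSC. In OPC against postnatal NSC, 2 were then higher and 38 lower. Over all genes, 3845 were then higher and 4420 lower in adult than in postnatal NSC, and 3411 higher and 3608 lower in OPC than in postnatal NSC. The 8 markers listed for oligodendrocyte precursors were Pdgfra, Cspg4, Olig1, Olig2, Sox10, Gpr17, Lhfpl3 and Cacng4. They summed to 5130 to 10700 CPM (counts scaled to a common library total) in postnatal OPC, 2990 to 3580 in postnatal NSC and 2180 to 2490 in adult NSC. In OPC 5 of them were called higher than in postnatal NSC (not Olig1, Sox10 or Gpr17), and all 8 higher than in adult NSC. With age 6 were lower and 0 higher. The 8 neural stem markers summed to at least 5270 CPM in every library. Of those neural stem markers 5 were called lower and 2 (Fabp7, Sox2) higher in postnatal OPC than in postnatal NSC. In OPC against adult NSC, 3 were lower and 3 higher. Of 6 astrocyte markers, with Gfap in both lists, 3 were lower and 0 higher in OPC than in postnatal NSC. Against adult NSC, 2 of these were lower and 3 higher. Over all genes 22.7% were lower and 22.4% higher in OPC than in postnatal NSC, and 24.7% and 26.3% than in adult NSC. Markers of neuroblasts and neurons summed to 661 to 1000 CPM for postnatal NSC, 656 to 742 for adult NSC and 1290 to 1970 for postnatal OPC. Of the 5 tested, Dcx, Snap25 and Map2 were called higher in OPC than in either NSC group, Rbfox3 than in postnatal NSC and Tubb3 than in adult NSC. The part of these cells in the results was not tested. Libraries of postnatal NSC 3 and postnatal OPC 2 stood apart in genes of the G1/S cell cycle phase: their mean log2 CPM over 24 such genes was 4.81 and 4.51, against 5.87 to 6.67 in the other 10 libraries. Many of the results that rest on either library, but not all, are given with and without it.

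Most nuclear-encoded members had their highest mean in adult NSC (64 of the 87 tested) and their lowest in postnatal OPC (63 of 87), while 11 of the 13 mitochondrially encoded members were highest in postnatal OPC and 11 were lowest in postnatal NSC. The same counts were not made over all genes. The nuclear-encoded genes together took 1.167, 1.144, 0.9609 and 1.124% of all gene counts in postnatal NSC 1 to 4, 1.186, 1.167, 1.243 and 1.206% in adult NSC 1 to 4, and 0.8402, 0.8781, 0.9559 and 0.9253% in postnatal OPC 1 to 4. The 4 OPC libraries lay below all 8 NSC libraries, and postnatal NSC 3 lay close above them. The NSC groups met, since postnatal NSC 1 and adult NSC 2 had the same share (1.167%). The 13 mitochondrially encoded genes took 2.243, 2.582, 3.576 and 2.684% of counts in postnatal NSC 1 to 4, 3.507, 3.324, 2.64 and 2.98% in adult NSC 1 to 4, and 4.368, 3.797, 4.22 and 4.522% in postnatal OPC 1 to 4. Again the OPC libraries stood apart from all NSC libraries, here above them, while the postnatal and adult NSC libraries overlapped. Group means were 1.10 ± 0.0937%, 1.2 ± 0.0325% and 0.900 ± 0.0511% for the nuclear set and 2.77 ± 0.569%, 3.11 ± 0.383% and 4.23 ± 0.312% for the mitochondrial set in postnatal NSC, adult NSC and postnatal OPC (SD, n = 4 each).

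**Figure D1:**
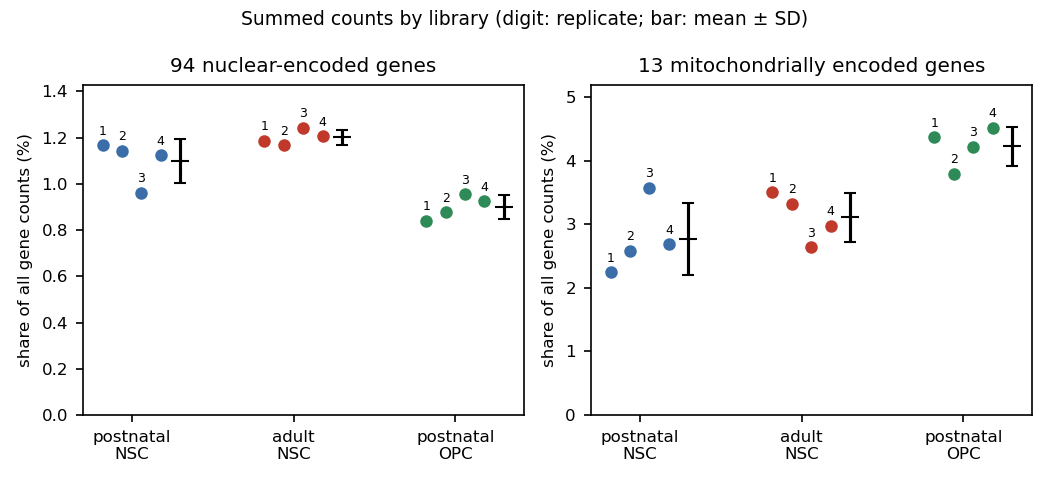
Share of all gene counts, in percent, taken by the 94 nuclear-encoded genes (left) and the 13 mitochondrially encoded genes (right) in each library; points are libraries with their replicate number, and the black bar is the group mean ± SD. Postnatal OPC libraries sit below all others on the left (0.8402 to 0.9559%) and above all others on the right (3.797 to 4.522%).

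Per kilobase of principal transcript, the summed mitochondrial CPM was 2.80 ± 0.917 times the summed nuclear CPM in postnatal NSC, 3.33 ± 0.492 times in adult NSC and 5.69 ± 0.594 times in postnatal OPC (SD, n = 4). By library this ratio was 2.123, 2.291, 4.137 and 2.666 in postnatal NSC 1 to 4, 2.722 to 3.808 for adult NSC and 5.013 to 6.312 for postnatal OPC. Postnatal NSC 3 was the NSC library nearest to the OPC range. The lists were chosen, so the sums and ratios are descriptions and were not tested.

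Promoters are shown for 4 nuclear-encoded members. Among the tested nuclear members, Ndufaf4 rose most in adult against postnatal NSC, and Ndufc2 fell most in OPC against adult NSC. Sdhd and Cox6a1 carry matches to both motifs searched, as does Atp5h, which is not shown. NRF1 and ETS-family factors such as GABP are known as activators of nuclear respiratory genes, and the 250 bases before the RefSeq start site were searched on both strands for GCGCA, any base, then GCGC (NRF1) and for CCGGAAG (ETS). Ndufaf4 (chr4:24897833-24898082, plus strand) makes an assembly factor of complex I, Sdhd (chr9:50603850-50604099, minus strand) a membrane anchor of complex II, Cox6a1 (chr5:115348959-115349208, minus strand) the usual form of a complex IV subunit and Ndufc2 (chr7:97399753-97400002, plus strand) a membrane subunit of complex I. Sequences are from RefSeq, build GRCm38.p6, 5′ to 3′ on the gene's strand and ending at the base before the start site, with motif matches in capitals; matches on the opposite strand appear as the reverse complement.
Ndufaf4: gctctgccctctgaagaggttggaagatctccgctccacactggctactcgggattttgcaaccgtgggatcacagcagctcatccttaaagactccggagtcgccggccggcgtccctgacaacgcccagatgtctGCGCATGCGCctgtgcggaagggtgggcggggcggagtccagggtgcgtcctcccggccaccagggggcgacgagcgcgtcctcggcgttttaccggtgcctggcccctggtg
Sdhd: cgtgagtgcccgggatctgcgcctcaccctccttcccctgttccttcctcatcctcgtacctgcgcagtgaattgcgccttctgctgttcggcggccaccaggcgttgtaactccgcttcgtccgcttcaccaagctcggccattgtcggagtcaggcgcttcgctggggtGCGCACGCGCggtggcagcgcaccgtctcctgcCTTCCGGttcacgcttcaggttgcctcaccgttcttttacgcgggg
Cox6a1: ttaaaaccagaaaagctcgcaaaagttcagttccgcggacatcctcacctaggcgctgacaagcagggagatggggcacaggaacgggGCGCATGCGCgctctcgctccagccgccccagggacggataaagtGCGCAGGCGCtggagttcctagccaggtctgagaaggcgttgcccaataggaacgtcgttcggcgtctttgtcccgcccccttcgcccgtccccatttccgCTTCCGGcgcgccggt
Ndufc2: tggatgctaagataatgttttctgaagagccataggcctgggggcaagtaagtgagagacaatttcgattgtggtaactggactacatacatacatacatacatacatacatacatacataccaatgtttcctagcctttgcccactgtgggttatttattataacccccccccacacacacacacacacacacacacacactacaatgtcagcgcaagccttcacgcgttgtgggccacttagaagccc

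The Ndufaf4 window held 1 NRF1 match (113 to 104 bases before the start), and that of Sdhd held 1 NRF1 match (79 to 70) and 1 ETS match (46 to 40). Cox6a1 had NRF1 matches at 162 to 153 and 117 to 108 bases and an ETS match at 16 to 10, and the Ndufc2 window matched neither set of letters. RefSeq promoters were found for 74 of the 93 nuclear symbols. An NRF1 match was present in 14 of the 74 (18.9%), against 4.23% of all 27025 genes with a promoter entry and 9.05% of the 10831 such genes that passed the filter. An ETS match was present in 14 (18.9%), against 7.83% of all genes and 15.1% of those that passed the filter. Matches to both were present in Atp5h, Cox6a1 and Sdhd. Of the 14 members with an NRF1 match, Atp5c1, Atp5k, Ndufa5, Ndufaf4, Ndufb4, Ndufs6, Sdha and Sdhd were called higher in adult NSC than in postnatal NSC. The others, Atp5g2, Atp5h, Cox6a1, Ndufa11, Ndufa8 and Ndufs5, were not called there. Higher in that comparison were 37 of all 87 tested nuclear members and 25.2% of all genes. Cox6a1 was lower in postnatal OPC than in either NSC group. The part of either motif in these changes was not tested.

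Each gene was compared between groups with edgeR's quasi-likelihood test over all 16135 genes, and a member was called higher or lower when its Benjamini-Hochberg adjusted p was under 0.05; folds are log2 fold changes ± SE, and CPM values are scaled by TMM. Between postnatal OPC and postnatal NSC, 39 of the 87 tested nuclear members were lower in OPC and 2 were higher, with a median log2 fold change of -0.19. Over all genes 22.7% were lower and 22.4% higher (45.1% either way), with a median of -0.01. All 13 mitochondrial members had a positive log2 fold change in the same comparison and 12 were called higher, with a median of 0.95. Between adult and postnatal NSC, 37 nuclear members were higher in adult NSC and 5 lower (median 0.21), and 6 mitochondrial members were higher and 0 lower (median 0.23). Over all genes 25.2% were higher and 27.9% lower there (53.1% either way), with a median of -0.03. Scaling bears on this nuclear split: without TMM, on total counts, 27 were higher and 9 lower, so that 75% instead of 88.1% of the called members were higher, while the median of all genes moved to -0.12. Without postnatal NSC 3 and postnatal OPC 2 the split was 35 higher and 10 lower (77.8% higher), and 10 instead of 6 mitochondrial members were higher. Over all genes, 4494 instead of 4065 were then higher and 4869 instead of 4504 lower. Leaving out single libraries moved the 5 lower members to 8 without postnatal NSC 3, to 9 without postnatal OPC 2, to 2 without adult NSC 1 or adult NSC 2, and to 3 without adult NSC 3.

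Postnatal OPC against adult NSC gave the most calls among the members: 66 of 87 nuclear members were lower in OPC and 3 higher (median -0.40), and 7 of 13 mitochondrial members were higher and 1 lower (median 0.36). Over all genes 24.7% were lower and 26.3% higher (51% either way), with a median of 0.01. Without postnatal NSC 3 and postnatal OPC 2, 49 nuclear members were lower and 3 higher in OPC than in postnatal NSC, and 64 were lower and 2 higher than in adult NSC. Over all genes, 4526 instead of 3662 were then lower and 4265 instead of 3614 higher in OPC than in postnatal NSC. Against adult NSC, 4448 instead of 3992 of all genes were lower and 4531 instead of 4242 higher. The 3 comparisons share groups, so their counts are not independent of each other.

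**Figure D2:**
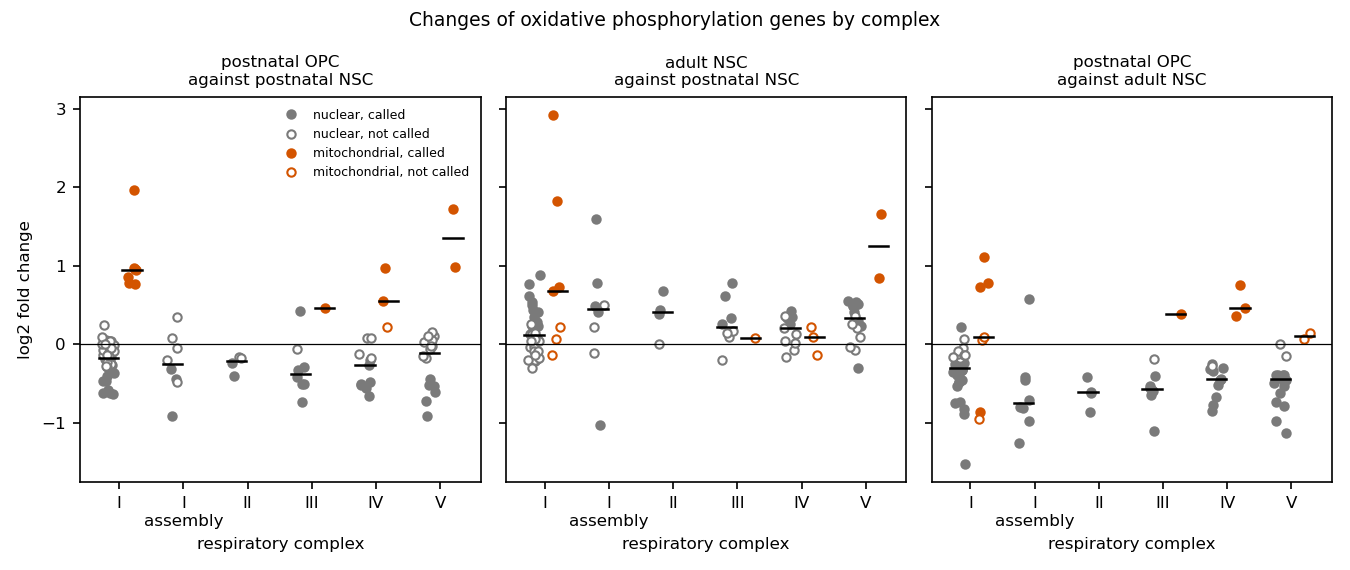
Log2 fold change of each tested subunit or complex I assembly factor, by complex, in the 3 comparisons; filled points passed the test at an adjusted p under 0.05 (edgeR), open points did not, grey is nuclear-encoded, orange is mitochondrially encoded, and black bars are medians. In the right panel grey points lie mostly below 0 in every complex, and orange points of complexes III and IV lie above 0.

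The nuclear difference between postnatal OPC and adult NSC was found in each complex. Lower in OPC were 24 of 36 subunits of complex I (median -0.30), 7 of 8 assembly factors of complex I (median -0.75), 4 of 4 subunits of complex II (median -0.61), 7 of 8 of complex III (median -0.57), 10 of 11 usual subunits of complex IV (median -0.45) and 14 of 16 of complex V (median -0.45). Against postnatal NSC, the lower members in OPC were 14 of 36, 3 of 8, 2 of 4, 6 of 8, 7 of 11 and 6 of 16 in the same order. Higher in adult than in postnatal NSC were 13 of 36, 4 of 8, 3 of 4, 4 of 8, 4 of 11 and 9 of 16. Over all genes 24.7% were lower in OPC than in adult NSC, 22.7% lower than in postnatal NSC and 25.2% higher with age. Between OPC and postnatal NSC, 45.1% of all genes were called either way. Complex I (38.9%), its assembly factors (37.5%) and complex V (37.5%) lay below that share, and complexes II, III and IV above it. With age, complexes I, III and IV (41.7, 50 and 36.4%) lay below the 53.1% of all genes and the others above. Differences between complexes were not tested.

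By pattern of calls, 24 of the 87 nuclear members were higher in adult NSC than in either other group with no call between postnatal NSC and OPC, a pattern of 8.22% of all 16135 genes. A further 22 were lower in OPC than in either NSC group with no call between the NSC ages (7.93% of all genes), and 11 were ordered throughout, highest in adult NSC and lowest in OPC (3.09% of all genes). The ordered members were Atp5g3, Atp5mpl, Cox5a, Cox7c, Ndufaf7, Ndufb5, Ndufc1, Ndufc2, Sdha, Uqcr10 and Uqcrh. No call in any comparison was made for 13 tested nuclear members, among them Ndufa9, Ndufa13 and Atp5h, and for 23.3% of all genes. The heat map of nuclear members by library shows these patterns gene by gene.

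**Figure D3:**
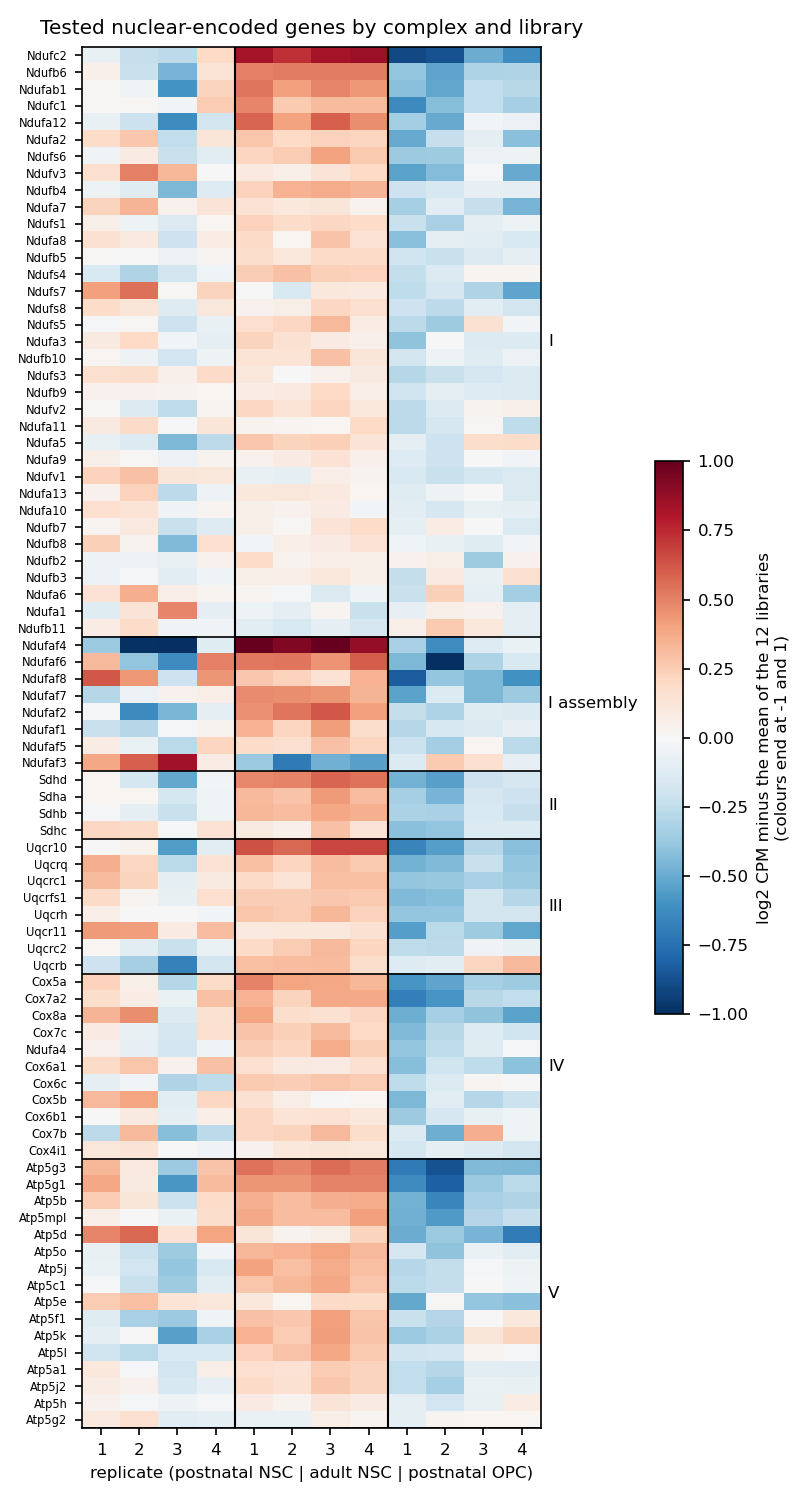
Log2 CPM of tested nuclear subunits and complex I assembly factors (rows, grouped by complex) in the 12 libraries (columns), as the difference from the gene's mean over the 12 libraries; red is higher, blue lower, and colours end at -1 and 1. Adult NSC columns are red for most rows, and postnatal OPC columns are blue for most rows, with exceptions such as Ndufb11, Uqcrb and Ndufaf3.

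Complex I takes electrons from NADH. Ndufc2 had 91.8, 82.4, 80.5 and 111 CPM in postnatal NSC 1 to 4, 171.8, 160.0, 171.2 and 174.7 CPM in adult NSC 1 to 4, and 51.5, 52.8, 68.5 and 62.5 CPM in postnatal OPC 1 to 4. The 3 groups did not overlap. Its log2 fold change was -1.53 ± 0.118 for OPC against adult NSC (2.88-fold lower, adjusted p = 9.97e-07, edgeR), 0.89 ± 0.116 for adult against postnatal NSC (adjusted p = 0.000102) and -0.64 ± 0.116 for OPC against postnatal NSC (adjusted p = 0.000901). It showed the largest fall among nuclear subunits of complex I against either NSC group and the largest rise with age.

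Other complex I subunits moved less. Ndufs1, the largest iron-sulfur subunit, rose with age by 0.23 ± 0.075 and was lower in OPC than in adult NSC by -0.37 ± 0.075 on the log2 scale. Ndufv1, the NADH-binding subunit, fell with age: it had 119.2, 124.2, 110.1 and 109.9 CPM in postnatal NSC 1 to 4 and 96.3, 95.1, 106.4 and 103.9 CPM in adult NSC 1 to 4, with no overlap. Its log2 fold change was -0.21 ± 0.067 (edgeR adjusted p = 0.0220), and the call was lost without adult NSC 1 (-0.18, adjusted p = 0.0782) or adult NSC 2 (-0.17, adjusted p = 0.0843). Ndufb11, a membrane subunit, was the 1 subunit of complex I called higher in OPC than in adult NSC (0.22 ± 0.083, edgeR adjusted p = 0.0429). That call was lost without any single library of adult NSC or without postnatal OPC 1, 2 or 3, with log2 fold changes of 0.16 to 0.24.

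Assembly factors of complex I help to build the complex and are not part of it. Ndufaf4 had 22.9, 15.02, 12.1 and 27.4 CPM in postnatal NSC 1 to 4, 62.3, 56.6, 61.8 and 54.6 CPM in adult NSC 1 to 4, and 23.7, 19.4, 27.1 and 28.3 CPM in postnatal OPC 1 to 4. Adult NSC libraries were above all others, and the postnatal groups overlapped. The log2 fold change with age was 1.60 ± 0.221 (3.04-fold, adjusted p = 0.000145, edgeR), the largest rise of any nuclear member in that comparison. Ndufaf3 moved the other way: it had 12.0, 13.9, 16.4 and 9.67 CPM in postnatal NSC 1 to 4, 7.09, 5.61, 6.59 and 6.29 CPM in adult NSC 1 to 4, and 8.37, 11.0, 10.3 and 8.70 CPM in postnatal OPC 1 to 4. It fell with age by 1.02 on the log2 scale (SE 0.171, edgeR adjusted p = 0.000480), and the adult libraries were below all others. Its lower level in OPC than in postnatal NSC (-0.44 ± 0.168, edgeR adjusted p = 0.0486) was lost without any 1 of 9 libraries, postnatal NSC 3 among them (-0.31), and was kept without postnatal NSC 1, postnatal NSC 4 or postnatal OPC 2. Ndufaf8, needed for assembly with NDUFAF5, had 6.41 to 11.4 CPM in postnatal NSC, 8.16 to 9.44 for adult NSC and 4.16 to 5.67 for postnatal OPC, and was lower in OPC than in postnatal NSC (log2 fold change -0.91 ± 0.178, edgeR adjusted p = 0.00139).

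Complex II, succinate dehydrogenase, also works in the citric acid cycle and has no mitochondrially encoded subunit. Sdhd had 112.6, 98.2, 78.1 and 108.9 CPM in postnatal NSC 1 to 4, 155.0, 156.5, 166.2 and 161.7 CPM in adult NSC 1 to 4, and 80.1, 76.2, 96.1 and 99.0 CPM in postnatal OPC 1 to 4. Adult NSC were above both postnatal groups, which overlapped through postnatal NSC 2 and 3. Sdhd rose with age by 0.69 ± 0.118 on the log2 scale (1.61-fold, edgeR adjusted p = 0.000585) and was 1.82-fold lower in OPC than in adult NSC. Sdhd was not called between OPC and postnatal NSC (-0.18 ± 0.118), but was without postnatal NSC 3 (-0.28, edgeR adjusted p = 0.0303). Sdhc, the other membrane anchor, did not share that course: it was flat between the NSC ages (log2 fold change 0.01 ± 0.091) and lower in OPC than in postnatal NSC (-0.40 ± 0.091, edgeR adjusted p = 0.00367). The catalytic subunit Sdha (0.38 ± 0.083) and the iron-sulfur subunit Sdhb (0.43 ± 0.069) were both higher in adult than in postnatal NSC and lower in OPC than in adult NSC (-0.62 and -0.60).

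**Figure D4:**
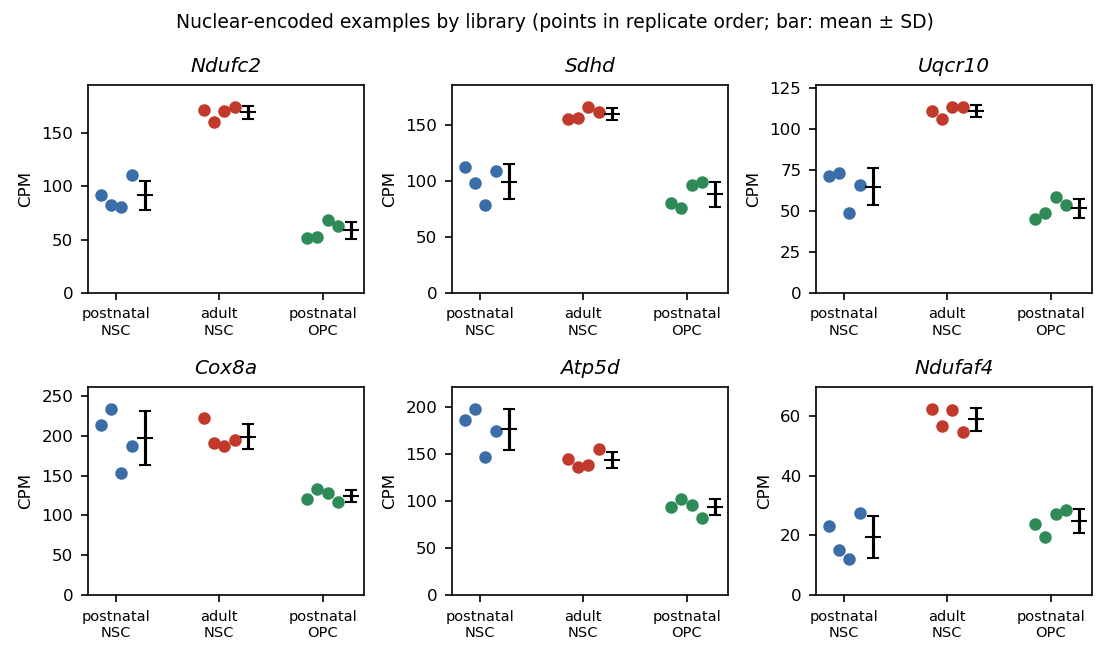
CPM of 6 nuclear-encoded members by library, points in replicate order, with the group mean ± SD as a black bar and axes that start at 0. Ndufc2, Sdhd, Uqcr10 and Ndufaf4 are highest in adult NSC, while Cox8a and Atp5d are lowest in postnatal OPC with adult NSC at or below postnatal NSC.

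Complex III passes electrons from ubiquinol to cytochrome c. Uqcr10, a small subunit, had 71.2, 73.1, 48.5 and 65.8 CPM in postnatal NSC 1 to 4, 110.8, 106.0, 113.4 and 113.1 CPM in adult NSC 1 to 4, and 45.2, 48.8, 58.6 and 53.3 CPM in postnatal OPC 1 to 4. Adult NSC stood apart above, and postnatal NSC 3 lay within the OPC range. The log2 fold change was 0.78 ± 0.122 with age (edgeR adjusted p = 0.000329) and -1.11 ± 0.124 for OPC against adult NSC (edgeR adjusted p = 1.76e-05). The smaller difference between OPC and postnatal NSC (-0.33 ± 0.122, edgeR adjusted p = 0.0434) was lost in 9 of the 12 fits without 1 library, with values of -0.34 to -0.30 and adjusted p up to 0.091, and was kept without postnatal NSC 3, postnatal NSC 4 or postnatal OPC 3.

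Uqcr11, another small subunit, was instead lower in OPC with little change with age. It had 90.2, 90.0, 71.2 and 83.2 CPM in postnatal NSC 1 to 4, 71.8, 72.4, 72.4 and 74.9 CPM in adult NSC 1 to 4, and 46.0, 55.7, 52.5 and 46.9 CPM in postnatal OPC 1 to 4. The OPC libraries were below all NSC libraries, with log2 fold changes of -0.73 ± 0.091 against postnatal NSC (edgeR adjusted p = 6.5e-05) and -0.54 ± 0.091 against adult NSC (edgeR adjusted p = 0.000425). Its difference with age (-0.20 ± 0.091, edgeR adjusted p = 0.0812) was called without postnatal NSC 3 (-0.27, adjusted p = 0.0134) or without postnatal OPC 1 or postnatal OPC 2 (-0.24 each, adjusted p = 0.05 and 0.0321). Uqcrb, which binds near the ubiquinone site, was the exception of the complex: 61.4, 56.3, 44.4 and 62.3 CPM in postnatal NSC 1 to 4, 79.9 to 88.0 for adult NSC and 64.6, 65.3, 82.1 and 88.5 in postnatal OPC 1 to 4. It was higher in OPC than in postnatal NSC with no overlap (0.42 ± 0.126, edgeR adjusted p = 0.0162), a call lost without postnatal OPC 4 (0.34, adjusted p = 0.0556).

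Complex IV, cytochrome c oxidase, reduces oxygen, and many of its nuclear subunits exist in forms used by different tissues. Per kilobase of principal transcript, the usual form Cox6b1 stood at 271 CPM in postnatal NSC and the alternative form Cox6b2 at 10.4. Cox8a had 213.6, 233.6, 153.9 and 187.7 CPM in postnatal NSC 1 to 4, 221.8, 191.2, 187.6 and 194.8 CPM in adult NSC 1 to 4, and 120.4, 133.8, 127.9 and 116.4 CPM in postnatal OPC 1 to 4. OPC libraries were below all others, and the NSC groups overlapped. The log2 fold change was -0.66 ± 0.116 against postnatal NSC (edgeR adjusted p = 0.000698) and 0.01 ± 0.116 with age (edgeR adjusted p = 0.938).

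Cox5a, a subunit that joins early in assembly, had 123.7, 110.0, 86.6 and 120.2 CPM in postnatal NSC 1 to 4, 132.9 to 149.2 for adult NSC and 70.2, 73.5, 83.9 and 82.7 in postnatal OPC 1 to 4. The groups did not overlap, and OPC were lower than adult NSC by -0.85 ± 0.109 on the log2 scale (edgeR adjusted p = 4.91e-05). Its rise with age (0.34 ± 0.108, edgeR adjusted p = 0.0174) was lost without postnatal NSC 2 (0.30, adjusted p = 0.0609) or adult NSC 1 (0.32, adjusted p = 0.0503). Cox6c rose most with age among the usual nuclear subunits (0.42 ± 0.082, edgeR adjusted p = 0.00125).

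Among paired forms, Cox4i1 had 287.6 to 321.7 CPM in postnatal NSC, 303.9 to 319.8 for adult NSC and 259.1 to 275.6 for postnatal OPC. Cox4i1 was lower in OPC than in postnatal NSC (-0.20 ± 0.065, edgeR adjusted p = 0.0249), lost without postnatal OPC 3 (-0.20, adjusted p = 0.0535) or postnatal OPC 4 (-0.18, adjusted p = 0.0687). Its partner Cox4i2, the form known from lung and pericytes, stayed at 0.526 CPM or less in every library and was not tested. The forms known from heart and skeletal muscle were equally scarce: Cox6a2 and Cox8b reached at most 0.199 and 0.174 CPM, both in postnatal NSC, Cox7a1 reached 0.873 CPM, and Cox8c, a testis form, had 0 counts in all 12 libraries. Cox7b2 was at 0.0576 CPM or less.

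Cox6b2, the testis form of Cox6b1, was the alternative form with a difference between groups. It had 4.97, 7.16, 5.38 and 6.91 CPM in postnatal NSC 1 to 4, 2.07, 2.29, 2.70 and 2.16 CPM in adult NSC 1 to 4, and 1.89, 1.79, 3.34 and 2.498 CPM in postnatal OPC 1 to 4. Postnatal NSC were above all other libraries, 2.65-fold above adult NSC (log2 fold change -1.40 ± 0.227 for adult against postnatal, edgeR adjusted p = 0.000386) and 2.58-fold above OPC (-1.37 ± 0.225, edgeR adjusted p = 0.000455). The usual form Cox6b1 was at 128.7 to 191.1 CPM and was called only between OPC and adult NSC (-0.31 ± 0.080, edgeR adjusted p = 0.00666), and without postnatal NSC 3 also between OPC and postnatal NSC (-0.22, adjusted p = 0.0411). Ndufa4, now counted to complex IV, was at 111.0 to 187.8 CPM. Its relative Ndufa4l2 had 0.994, 1.49, 0.451 and 0.298 CPM in postnatal NSC 1 to 4, 0.104 to 0.901 for adult NSC and 0.0961 to 0.194 for postnatal OPC, and was not tested. Ndufa4l2 and Cox4i2 are also used as pericyte genes: the sum of 8 pericyte and smooth muscle markers ran from 34.4 to 60.7 CPM in postnatal NSC, 13.7 to 38.4 for adult NSC and 3.8 to 9.58 for postnatal OPC, with Higd1b at 0 counts throughout, Kcnj8 at 0 in postnatal NSC, and Abcc9 and Vtn at 0 in adult NSC, and its part in their levels was not tested. Most of that sum was Acta2, which is shared by smooth muscle and other contractile cells, at 46.7 ± 11.5, 24.2 ± 9.98 and 2.31 ± 1.40 CPM in postnatal NSC, adult NSC and postnatal OPC. Of the 8 markers 2 were tested, and the other, Pdgfrb, did not follow Acta2: it had 1.82 ± 1.56, 0.288 ± 0.186 and 2.82 ± 4.08 CPM and was called higher in OPC than in adult NSC. Cox7a2 was lower in OPC than in either NSC group (-0.56 ± 0.110 and -0.77 ± 0.111), while Cox7a2l, which joins complexes III and IV into supercomplexes, was not called in any comparison. Without postnatal OPC 1, Cox7a2l was called higher in OPC than in adult NSC (0.24, edgeR adjusted p = 0.0350). Cox7b was not called either, with wide spread in postnatal NSC (87.3 to 146.8 CPM) and postnatal OPC (83.7 to 150.6 CPM). It was called without postnatal NSC 2 in the age comparison (0.51, edgeR adjusted p = 0.0208) and without postnatal OPC 3 against adult NSC (-0.45, edgeR adjusted p = 0.0465).

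Complex V turns the proton gradient into ATP. Atp5b, its catalytic beta subunit, was the most abundant nuclear member per length, at 749 CPM per kilobase of principal transcript in postnatal NSC, 894 in adult NSC and 520 in postnatal OPC, followed by Atp5a1 (alpha subunit, 470, 542 and 416). The median tested nuclear member lay at 87.1 (Ndufa1), 92.6 (Ndufb5) and 73.4 (Ndufb5) on the same scale. Atp5b was lower in OPC than in either NSC group (log2 fold change -0.53 ± 0.108 and -0.78 ± 0.109).

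Atp5d, the delta subunit of the rotor's central stalk, had 186.5, 198.0, 146.7 and 174.6 CPM in postnatal NSC 1 to 4, 144.6, 136.1, 138.2 and 155.2 CPM in adult NSC 1 to 4, and 94.1, 102.5, 96.1 and 82.0 CPM in postnatal OPC 1 to 4. OPC were below all NSC libraries, and the NSC groups overlapped through postnatal NSC 3. The fall in OPC against postnatal NSC (-0.91 ± 0.101, edgeR adjusted p = 3e-05) was the largest among the nuclear subunits of the complex. The fall with age (-0.30 with an SE of 0.1, edgeR adjusted p = 0.0246) was lost without adult NSC 1 (-0.30, adjusted p = 0.0549), adult NSC 2 (-0.27, adjusted p = 0.0741) or adult NSC 3 (-0.28, adjusted p = 0.0678). Atp5k, which helps ATP synthase to form dimers, rose most with age among the nuclear subunits of this complex (0.55 ± 0.147, edgeR adjusted p = 0.00773). Its lower level in OPC than in adult NSC (-0.39 ± 0.148, edgeR adjusted p = 0.0416) was lost in 7 of the 12 fits without 1 library (without postnatal NSC 4, any adult NSC library, or postnatal OPC 1 or 2), with values of -0.42 to -0.30.

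The c-ring of ATP synthase is built from a single protein made by 3 genes, Atp5g1, Atp5g2 and Atp5g3, which differ in their import sequences. Atp5g3 had 323.7, 274.5, 199.7 and 312.5 CPM in postnatal NSC 1 to 4, 360.2 to 378.3 for adult NSC and 157.5, 140.7, 189.3 and 187.9 in postnatal OPC 1 to 4. The 3 groups did not overlap, and OPC were 2.19-fold below adult NSC (log2 fold change -1.13 ± 0.143, edgeR adjusted p = 4.5e-05). Its rise with age (0.41 ± 0.141, edgeR adjusted p = 0.0265) was lost without postnatal NSC 2 (0.37, adjusted p = 0.0802), adult NSC 1 (0.41, adjusted p = 0.0538) or adult NSC 3 (0.41, adjusted p = 0.0556). Atp5g1 fell in OPC as well, by -0.97 ± 0.181 against adult NSC (edgeR adjusted p = 0.000795). Atp5g2 did not take part: it was at 203.9 to 245.4 CPM in all 12 libraries, with log2 fold changes of -0.03, -0.03 and 0.004 (SE 0.078 each). Of the Atp5g2 transcript, 87.4% is shared with the pseudogene Gm10175, so its counts are uncertain. The pseudogene itself had 120.1 ± 9.14, 114.7 ± 7.15 and 109.1 ± 6.18 CPM in postnatal NSC, adult NSC and postnatal OPC. Atp5s, coupling factor B, was with Uqcrb 1 of the 2 nuclear members called higher in OPC than in postnatal NSC, with 3.55 to 4.58 CPM in postnatal NSC, 3.93 to 4.73 for adult NSC and 6.28 to 7.06 for postnatal OPC, and a log2 fold change of 0.75 ± 0.143 for OPC against postnatal NSC (edgeR adjusted p = 0.00118).

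The mitochondrial genome encodes 7 subunits of complex I, 1 of complex III, 3 of complex IV and 2 of complex V. Its genes are transcribed as long RNAs that are then cut into single messages. Per kilobase, the most abundant in postnatal NSC were mt-Co1 (6092 CPM per kilobase), mt-Co2 (4416) and mt-Atp6 (4172). In adult NSC they were mt-Atp6 (7518), mt-Atp8 (6671) and mt-Co1 (5552), and in postnatal OPC mt-Atp6 (8295), mt-Co1 (7117) and mt-Atp8 (6992). The lowest was mt-Nd6 (6.47, 49.1 and 25.3), the only protein gene of the light strand, whose RNA is known to lack the usual poly(A) tail and which a poly(A) library captures poorly.

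The mitochondrial genes divided into 2 courses by their calls. In the first, mt-Co2, mt-Co3, mt-Nd4l, mt-Nd4, mt-Nd5 and mt-Cytb were higher in postnatal OPC than in either NSC group, with no call between the NSC ages, a pattern of 5.94% of all genes. In the second, mt-Nd1, mt-Nd2, mt-Atp8, mt-Atp6, mt-Nd3 and mt-Nd6 were higher in both adult NSC and postnatal OPC than in postnatal NSC. Of these, 5 had no call between OPC and adult NSC, a pattern of 7.98% of all genes. The other, mt-Nd3, was lower in OPC than in adult NSC, a pattern of 1.42% of all genes. The remaining gene, mt-Co1, was called only between OPC and adult NSC.

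For the first course, mt-Co3 had 2009, 2011, 3153 and 2086 CPM in postnatal NSC 1 to 4, 3009, 2700, 2590 and 2461 CPM in adult NSC 1 to 4, and 4790, 4155, 4544 and 4652 CPM in postnatal OPC 1 to 4. All OPC libraries were above all NSC libraries, and postnatal NSC 3 was above every adult library. The log2 fold change was 0.97 ± 0.141 for OPC against postnatal NSC (1.96-fold, edgeR adjusted p = 0.000197) and 0.75 ± 0.141 against adult NSC (edgeR adjusted p = 0.000798). With age it was 0.22 ± 0.140 (edgeR adjusted p = 0.207), and without postnatal NSC 3 it was called (0.40, adjusted p = 0.00227). The same library bore on mt-Nd4l, which had no call with age (0.23 ± 0.160) but was higher in adult NSC without postnatal NSC 3 (0.40, edgeR adjusted p = 0.0255). Without both postnatal NSC 3 and postnatal OPC 2, 4 of the 6 genes of this course were called higher in adult than in postnatal NSC by edgeR: mt-Co3 (0.39, adjusted p = 0.000637), mt-Nd4l (0.39, adjusted p = 0.0103), mt-Co2 (0.23, adjusted p = 0.0370) and mt-Nd4 (0.31, adjusted p = 0.0392). In that fit mt-Nd5 (0.15) and mt-Cytb (0.17) were not called with age, so the division into courses rests in part on those libraries.

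mt-Nd5, a proton-pumping subunit of complex I, had 1040, 778.6, 1915 and 1142 CPM in postnatal NSC 1 to 4, 1267, 1248, 909.6 and 999.1 CPM in adult NSC 1 to 4, and 2540, 2131, 2444 and 2465 CPM in postnatal OPC 1 to 4. OPC stood above all NSC libraries, with log2 fold changes of 0.98 ± 0.223 against postnatal NSC (edgeR adjusted p = 0.00377) and 1.115 ± 0.224 against adult NSC (edgeR adjusted p = 0.00133), while the value with age was -0.14 ± 0.221. mt-Nd4 behaved likewise (0.86 ± 0.188 and 0.78 ± 0.188), as did mt-Co2 with smaller differences (0.55 ± 0.140 and 0.46 ± 0.139).

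mt-Cytb, the mitochondrial subunit of complex III, was higher in OPC by 0.46 ± 0.143 against postnatal NSC (edgeR adjusted p = 0.0188) and by 0.39 ± 0.143 against adult NSC (edgeR adjusted p = 0.0386). The first call was lost without postnatal NSC 1 (0.34), postnatal NSC 2 (0.44), postnatal OPC 1 (0.42) or postnatal OPC 4 (0.42), and the second without adult NSC 3 (0.28), adult NSC 4 (0.38), postnatal OPC 1 (0.37), postnatal OPC 3 (0.39) or postnatal OPC 4 (0.34). mt-Co1 was at 7075 to 11190 CPM in postnatal NSC, 7109 to 9430 for adult NSC and 10370 to 11690 for postnatal OPC. Its difference between OPC and adult NSC (0.36 ± 0.141, edgeR adjusted p = 0.0495) was lost without postnatal NSC 4, any 1 of the adult NSC libraries, or postnatal OPC 1, 3 or 4, with values of 0.27 to 0.40.

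For the second course, mt-Atp8, a short subunit of ATP synthase, had 299.8, 207.6, 722.3 and 490.8 CPM in postnatal NSC 1 to 4, 1597, 1500, 1090 and 1256 CPM in adult NSC 1 to 4, and 1435, 1101, 1481 and 1689 CPM in postnatal OPC 1 to 4. Postnatal NSC were below all other libraries, and adult NSC and OPC overlapped. The log2 fold change was 1.66 ± 0.313 with age (3.16-fold, edgeR adjusted p = 0.00101) and 1.73 ± 0.313 for OPC against postnatal NSC (3.32-fold, edgeR adjusted p = 0.000853). mt-Atp6, whose reading frame overlaps that of mt-Atp8, rose less (0.85 ± 0.177 with age and 0.99 ± 0.177 in OPC).

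mt-Nd3 showed the order adult NSC, then OPC, then postnatal NSC: it had 156.0, 58.7, 235.9 and 188.0 CPM in postnatal NSC 1 to 4, 670.1, 587.7, 504.1 and 507.6 CPM in adult NSC 1 to 4, and 305.5, 268.3, 331.6 and 340.3 CPM in postnatal OPC 1 to 4. The 3 groups did not overlap. The rise with age was 1.83 ± 0.309 on the log2 scale (3.55-fold, edgeR adjusted p = 0.000516), and OPC were below adult NSC by -0.87 ± 0.302 (edgeR adjusted p = 0.0301). The latter call, the only mitochondrial member lower in OPC, was lost without adult NSC 1 (-0.78), adult NSC 2 (-0.85), postnatal OPC 1 (-0.85) or postnatal OPC 2 (-0.79).

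mt-Nd6 had the largest folds at the lowest level. It had 4.47, 2.21, 2.83 and 3.93 CPM in postnatal NSC 1 to 4, 27.6, 20.2, 7.71 and 46.5 CPM in adult NSC 1 to 4, and 13.1, 15.2, 10.0 and 14.2 CPM in postnatal OPC 1 to 4. Postnatal NSC were below all others, and the adult libraries spread widely around the OPC range. The log2 fold change with age was 2.93 ± 0.436 (edgeR adjusted p = 0.000232). Between OPC and adult NSC it was -0.95 ± 0.408 (edgeR adjusted p = 0.0681), and without adult NSC 3 it was called (-1.26, adjusted p = 0.00515).

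mt-Nd1 and mt-Nd2, next to the ribosomal RNA genes, rose with age by 0.73 ± 0.237 and 0.68 ± 0.263 (edgeR adjusted p = 0.0214 and 0.0457) and were higher in OPC than in postnatal NSC by 0.78 ± 0.238 and 0.77 ± 0.264 (edgeR adjusted p = 0.0176 and 0.0314). The mt-Nd1 calls were lost without adult NSC 1 (0.65, with age) and without postnatal OPC 4 (0.69, in OPC). Those of mt-Nd2 were lost with age in 10 of the 12 fits without 1 library (all but those without postnatal NSC 3 or postnatal OPC 2), with values of 0.41 to 0.75, and in OPC without postnatal NSC 1 (0.70), postnatal NSC 2 (0.51), postnatal OPC 1 (0.72), postnatal OPC 3 (0.73) or postnatal OPC 4 (0.70). Postnatal NSC 2 was the lowest of all 12 libraries for mt-Nd1 (1009 CPM), mt-Nd2 (500.7), mt-Nd3 (58.7), mt-Nd5 (778.6), mt-Nd6 (2.21), mt-Atp6 (2214) and mt-Atp8 (207.6), and also in its share of mitochondrial ribosomal RNA (0.0153% of counts, against 0.0314 to 0.0707% elsewhere). It was not low for mt-Co1 (10630 CPM) or mt-Cytb (3184 CPM).

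**Figure D5:**
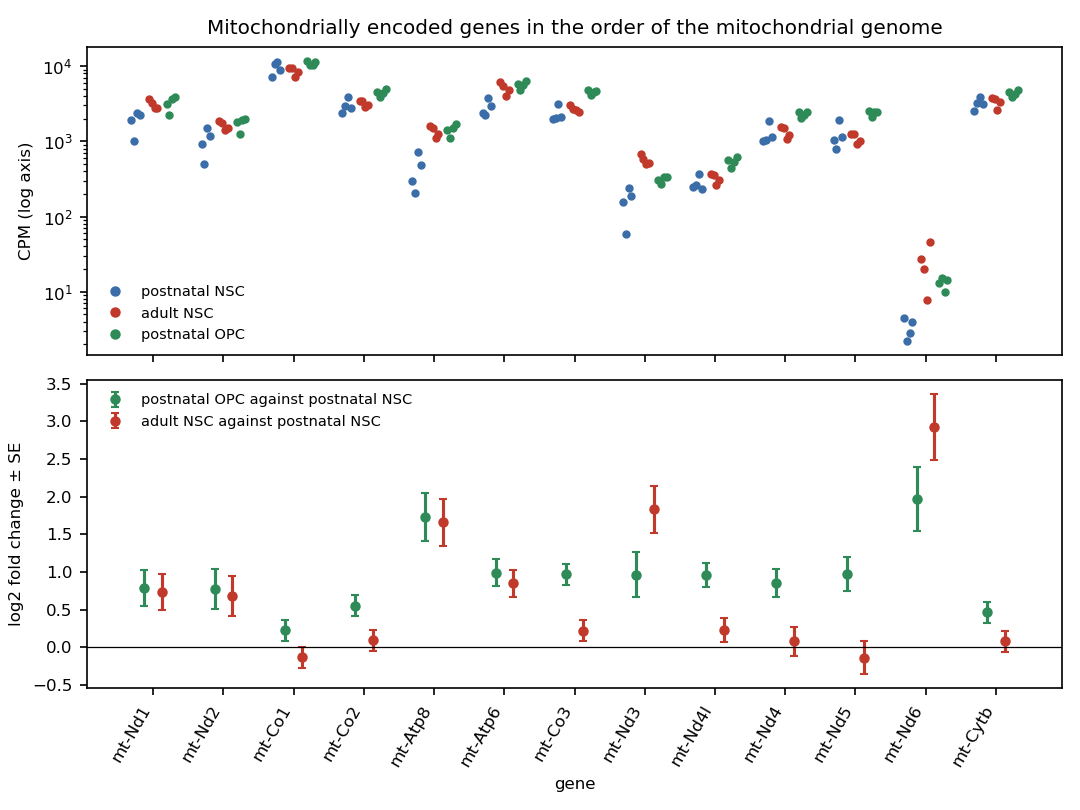
The 13 mitochondrially encoded genes in the order of the mitochondrial genome: CPM of each library on a log axis (top) and log2 fold change ± SE against postnatal NSC (bottom) for postnatal OPC (green) and adult NSC (red). Red and green points lie side by side above 0 at mt-Nd1, mt-Nd2, mt-Atp8 and mt-Atp6, and from mt-Nd4l to mt-Nd5 the red points lie near 0 while the green points stay above it.

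Counts of the mitochondrial genes carry an uncertainty of their own, since nuclear copies of a stretch of the mitochondrial genome are annotated as pseudogenes on chromosome 1. For 7 of the 13 genes (mt-Atp6, mt-Co1, mt-Co2, mt-Co3, mt-Nd3, mt-Nd4, mt-Nd4l) at least 10% of the transcript is shared with an annotated copy, up to 100% for mt-Co2. Of the 7 copies, 4 had nearly the same level as their originals: Gm10222 beside mt-Nd4l (276.2 ± 63.5 CPM in postnatal NSC), Gm28437 beside mt-Co3 (2316 ± 560), Gm28438 beside mt-Nd3 and Gm28661 beside mt-Co2. The others differed from theirs in postnatal NSC: Gm28439 had 527.4 CPM against 1258 for mt-Nd4, Gm10925 had 3559 against 2841 for mt-Atp6, and Gm29216 had 2736 against 9413 for mt-Co1. Gm28439 and Gm29216 are shorter than their originals (876 against 1378 bases and 492 against 1545). Per kilobase the values were 602.1 against 913.2, 5249 against 4172 and 5561 against 6092 in the same order, so that Gm29216 lay near mt-Co1. The 7 copies together took 1.05 to 1.7% of counts in postnatal NSC, 1.4 to 1.87% for adult NSC and 2.03 to 2.39% for postnatal OPC. Summed over the postnatal NSC libraries, Gm28437 had 405529 counts and mt-Co3 405356, and Gm28661 had 534552 and mt-Co2 534360. How reads that match several places were counted is not given in the sources used here. Whether the same reads were counted at both places was not tested, so the levels of the copies are not a measure of their own RNA. The 6 genes with under 10% shared (mt-Atp8, mt-Cytb, mt-Nd1, mt-Nd2, mt-Nd5, mt-Nd6) summed to 7712 ± 2020 CPM in postnatal NSC, 10580 ± 1520 in adult NSC and 13160 ± 1760 in postnatal OPC (SD, n = 4), the same order as for all 13. Their ranges were 5682 to 10330, 8799 to 12190 and 10660 to 14760 CPM, so that OPC overlapped adult NSC in this subset. Annotated transcripts alone were searched, so an unannotated copy would be missed. In the mitochondrial genome mt-Atp8 (bases 7766 to 7969) lies mostly between mt-Co2 and mt-Atp6. The copies of those genes, Gm28661 (chr1:24614885-24615565) and Gm10925 (chr1:24613974-24614651), are also neighbours. The stretch between these copies was not searched. So mt-Atp8 may be shared as well, and its place among the 6 genes is uncertain. Among nuclear members, 31 share at least 10% of the transcript with another annotated one and are uncertain in the same way. They include Atp5l (84.8%, mostly with Gm10221), Cox7c (53.0%), Atp5h (47.9%), Uqcrb (43.4%), Cox5a (32.0%) and Atp5o, which shares sequence with a readthrough transcript and a second Atp5o identifier.

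Other genes of the pathway are described from lists by role, beside the shares of all genes called either way (45.1% for OPC against postnatal NSC, 53.1% with age and 51% for OPC against adult NSC). Taken by direction, the shares of all genes higher and lower were 22.4% and 22.7%, 25.2% and 27.9%, and 26.3% and 24.7%, in that order. Of 8 tested electron carriers and subunits outside the symbol rule, 0 were higher and 2 lower in OPC than in postnatal NSC, 2 were higher and 2 lower in adult than in postnatal NSC, and 1 was higher and 4 lower in OPC than in adult NSC. The first share of calls (25%) lay below that of all genes and the second (50%) near it, so these counts say nothing particular of the list. Cycs, the cytochrome c of somatic cells, had 138.1 ± 46.7 CPM in postnatal NSC, 373.8 ± 21.6 in adult NSC and 137.7 ± 46.5 in postnatal OPC, a log2 fold change with age of 1.44 ± 0.270 (edgeR adjusted p = 0.000986). Cyc1, the cytochrome c1 of complex III, went from 177.7 ± 26.6 to 222.4 ± 6.79 CPM with age and to 127.7 ± 13.1 CPM in OPC, and passed the test in all 3 comparisons.

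Of 17 citric acid cycle genes, 11 were lower in OPC than in postnatal NSC and 0 higher, 9 were higher and 1 lower with age, and 16 were lower and 0 higher in OPC than in adult NSC. The shares called either way were 64.7%, 58.8% and 94.1%, of which the second was near that of all genes. By direction, 25.2% of all genes were higher and 27.9% lower with age. Ogdh, of the 2-oxoglutarate dehydrogenase complex, had 159.9 ± 23.0, 215.9 ± 12.1 and 103.3 ± 20.8 CPM in postnatal NSC, adult NSC and postnatal OPC. Idh3a, of the NAD-dependent isocitrate dehydrogenase, had 127.7 ± 37.1, 248.8 ± 15.7 and 120.3 ± 25.6 CPM. Of 22 genes of protein import, inner membrane carriers and chaperones, 15 were higher and 2 lower with age (77.3% called), and 17 were lower and 1 higher in OPC than in adult NSC (81.8%). Against postnatal NSC, 2 were higher and 5 lower in OPC, a share (31.8%) below that of all genes. Hspd1, the mitochondrial chaperonin, had 398.0 ± 135, 813.6 ± 52.3 and 343.5 ± 85.4 CPM.

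Of 30 assembly factors of complexes II to V, 3 were higher and 4 lower in OPC than in postnatal NSC (23.3% called), 11 were higher and 3 lower with age (46.7%), and 2 were higher and 11 lower in OPC than in adult NSC (43.3%). All 3 shares were below those of all genes called either way. By direction, 25.2% of all genes were higher with age and 24.7% lower in OPC than in adult NSC. Tmem70, needed to assemble ATP synthase, had 23.6 ± 3.92, 55.5 ± 2.39 and 19.9 ± 1.74 CPM, with a log2 fold change of 1.23 ± 0.116 with age (edgeR adjusted p = 1.24e-05). Surf1, needed for complex IV, moved against it, with 21.7 ± 3.35, 17.3 ± 0.691 and 23.1 ± 3.26 CPM.

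Of 24 genes of mitochondrial DNA upkeep, transcription and RNA handling, 12 were higher and 3 lower with age, 5 were higher and 2 lower in OPC than in postnatal NSC, and 3 were higher and 7 lower in OPC than in adult NSC. The shares called were 62.5%, 29.2% and 41.7%, of which the latter 2 were below those of all genes. Tfam, which packs and activates mitochondrial DNA, had 36.8 ± 7.23, 54.8 ± 6.41 and 48.5 ± 4.24 CPM and was higher in both adult NSC (0.57 ± 0.134) and OPC (0.40 ± 0.134) than in postnatal NSC on the log2 scale. Tfb2m, a transcription initiation factor, did the same (0.65 ± 0.099 and 0.49 ± 0.099). The mitochondrial RNA polymerase Polrmt was lower in OPC than in postnatal NSC (41.0 ± 4.46 and 28.9 ± 5.83 CPM, log2 fold change -0.51 ± 0.133). Pnpt1, a mitochondrial RNA-degrading enzyme, was higher in adult NSC than in either other group, at 61.1 ± 1.21 CPM against 28.6 ± 6.30 in postnatal NSC and 34.6 ± 5.20 in OPC.

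Of 11 regulators of mitochondrial biogenesis, 7 were higher and 0 lower with age (63.6% called), and 0 were higher and 6 lower in OPC than in adult NSC (54.5%). The latter share was near that of all genes called either way (51%), of which the part called lower was 24.7% of all genes. In OPC against postnatal NSC, 4 were higher and 2 lower (54.5%). The 4 were Gabpb1, Gabpa, Tfam and Yy1, and the 2 were Ppargc1b and Esrra. Ppargc1a, the coactivator PGC-1alpha, had 29.1 ± 4.92 CPM in postnatal NSC, 59.9 ± 7.2 in adult NSC and 20.4 ± 6.31 in postnatal OPC, with log2 fold changes of 1.04 ± 0.215 with age (edgeR adjusted p = 0.00173) and -1.56 ± 0.219 for OPC against adult NSC (edgeR adjusted p = 0.000101). Esrrg, a nuclear receptor partner of it, rose with age from 1.74 ± 0.440 to 8.30 ± 1.87 CPM. The NRF1 gene itself, Nrf1, was not called in any comparison (50.5 ± 3.96, 49.6 ± 1.81 and 54.8 ± 5.15 CPM). Gabpa, the DNA-binding subunit of GABP, was higher in OPC (107.7 ± 5.73 CPM) and adult NSC (93.2 ± 4.58) than in postnatal NSC (76.4 ± 8.37).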

How the data were processed

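RNA was sequenced with a stranded poly(A) mRNA kit from RNA of high integrity, per the labels' protocols. The deposited values are whole-number counts per gene, made by the authors with STAR and featureCounts (version 1.22.2, as the submitters' processing notes write it) on GRCm38; the strand setting and the treatment of reads that match several places are not given in the sources used here. Of 55401 identifiers, 55141 were found in GENCODE M21, which gave symbols, gene types and principal transcripts. Every one of the 12 columns was matched to a sample by name.

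The members and lists were chosen with earlier results of these data known. Counts were fitted in R 4.3.3 with edgeR 4.0.16 (quasi-likelihood test, 1 term per group, 12 libraries, TMM scaling, filterByExpr with a minimum count of 10 and a minimum total of 15), with Benjamini-Hochberg adjustment over 16135 genes; calls needed an adjusted p under 0.05. The biological coefficient of variation was 22.6%. Named genes are, per comparison and complex, the called nuclear member with the largest rise and fall (at least 5 CPM in the higher group), all mitochondrial protein genes, the tissue isoforms and up to 3 called genes per other list; Ndufs1, Sdha, Sdhb, Atp5a1, Atp5b, Atp5s and further genes of the other lists were added for their role after their values were seen. The values of 1 member are not reported here, and its row is left out of the heat map. The fit was tested on simulated counts. Promoters were read with Python 3.11.15. No 2 libraries of a group agreed within sampling noise (chi-square per degree of freedom at least 3.74), and p-values measure the spread between these cultures. Alternatives were other scalings, no filter, DESeq2 1.42.0, the compared groups alone, thinned counts, a Y-linked covariate, a replicate block, each library left out, and, chosen after seeing the data, postnatal NSC 3 and postnatal OPC 2 left out together.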

Additional observations from a re-analysis of the deposited data

Results flagged for a closer look

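In 4 of 132 sets of 4 libraries looked at (named genes and summed shares), 1 library lay far from the other 3, by a gap beyond the 95% critical value of Dixon's test; chance sets apart about 1 in 20. Postnatal NSC 3 was high for mt-Nd4 (1850 CPM, others 1020 to 1140) and mt-Co3 (3150 CPM, others 2010 to 2090). Adult NSC 4 was low for Uqcrb (79.9 CPM, others 87 to 88), and postnatal OPC 1 was low for Atp5g2 (205 CPM, others 223 to 224). Postnatal NSC 3 was also the lowest of its group for G1/S genes, and the part of this in its mitochondrial levels was not tested.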

How the results depend on the processing

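No result reversed. Adult NSC against postnatal NSC, 5 nuclear members were lower; this number was 8 with upper-quartile scaling, 9 on total counts, 8 with scale factors computed without mitochondrially encoded genes, 3 without the filter on low counts and 10 without postnatal NSC 3 and postnatal OPC 2, a setting in which mitochondrial members higher in adult NSC numbered 10 instead of 6. Nuclear members higher in postnatal OPC than in postnatal NSC numbered 1 instead of 2 when only those groups were fitted (with 26 instead of 39 lower) or with Y-linked expression as a covariate, and mitochondrial members lower in OPC than in adult NSC numbered 2 instead of 1 with DESeq2. With protein-coding counts as the denominator, mitochondrial genes took 4.552% in OPC instead of 4.227%. The cause was not tested. With 1 library left out, OPC against postnatal NSC gave 1 to 3 nuclear members higher, 33 to 47 lower, and 9 to 12 mitochondrial members higher; adult against postnatal NSC gave 28 to 38, 2 to 9 and 4 to 8; OPC against adult NSC gave 2 to 3, 59 to 69, 5 to 7, and 0 to 2 mitochondrial members lower. Of single named values, 41 lost and 23 gained a call over the other settings and 1288 did neither; leaving out 1 library gave 83, 14 and 1379.

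Replicate numbers are not stated to mark a shared litter, and same-numbered libraries did not deviate together: correlations ran from -0.363 to 0.325, 3 of 12 were over 0.1, and 4 of 12 libraries correlated best with their own number. A replicate block gave 2 nuclear members higher and 29 lower for OPC against postnatal NSC, 32 and 3 for adult against postnatal NSC, and 3 and 61 for OPC against adult NSC.

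Depth limits the scarce isoforms and mt-Nd6, and sums are shares of a library, so a level per cell was not measured. Shared sequence with nuclear copies limits 7 mitochondrial genes.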
